A study of Mus musculus with 9 samples.

Results

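Glycolysis and lactate export in the mouse lung were followed through 10 genes, chosen by name: the glucose transporter gene Slc2a1, the hexokinase genes Hk2 and Hk3, Pfkp and Pfkfb3 of the phosphofructokinase step, Pgk1 and Pkm of lower glycolysis, Ldha, the lactate exporter gene Slc16a3, and Hif1a. They are 10 of the 34638 rows of the deposited gene table, and all 10 passed the filter on low expression. Lung RNA of 9 wild-type C57BL/6 mice was sequenced, 3 mice in each of 3 groups. Control mice received phosphate buffered saline (PBS). IL-33 mice received 0.5 µg of recombinant mouse IL-33, an epithelial alarmin that signals through its receptor ST2 and the adaptor MyD88, into the trachea on days 0, 1, 2 and 3. IL-33+LM8 mice received the same IL-33 after 10 mg/kg of the MyD88 inhibitor LM8 into the peritoneum. Per the study's methods, control and IL-33 mice were females of 6 to 8 weeks and lungs were taken the day after the last challenge, while those methods do not describe the LM8 group. No group received LM8 without IL-33, so an action of LM8 that does not need IL-33 cannot be told apart from one that does. Neither comparison with the control group is independent of the other, because both use the same 3 control mice, and the IL-33 mice likewise enter 2 of the 3 comparisons.

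Glycolysis splits glucose to pyruvate in the cytosol and yields ATP without oxygen. Lactate dehydrogenase then turns pyruvate to lactate, which leaves the cell with a proton through monocarboxylate transporters, and this restores the NAD+ that glycolysis needs. Activated leukocytes, neutrophils and macrophages above all, are known for high glycolytic flux, and hypoxia-inducible factor HIF-1, whose alpha subunit Hif1a encodes, drives transcription of many of these genes from sites that contain ACGTG or GCGTG. HIF-1 alpha is controlled mainly by oxygen-dependent degradation of the protein, which an mRNA measurement does not see.

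The promoters of 4 members are printed here as examples, and Pfkfb3, the member that fell with IL-33, is not among them. The 4 are those of Pgk1 and Ldha, abundant genes with intermediate rises, Slc16a3, which rose again with LM8, and Hk3, with the largest rise. Each is the 250 bases before a RefSeq start on GRCm38.p6, written 5′ to 3′ on the gene's strand, with capitals at every ACGTG or GCGTG on either strand (CACGT or CACGC where the match is on the other strand). Pgk1 lies at chrX:106186850-106187099 on the plus strand, Ldha at chr7:46845554-46845803 on the plus strand (the more upstream of its 2 RefSeq starts), Slc16a3 at chr11:120948817-120949066 on the plus strand and Hk3 at chr13:55021386-55021635 on the minus strand.
Pgk1: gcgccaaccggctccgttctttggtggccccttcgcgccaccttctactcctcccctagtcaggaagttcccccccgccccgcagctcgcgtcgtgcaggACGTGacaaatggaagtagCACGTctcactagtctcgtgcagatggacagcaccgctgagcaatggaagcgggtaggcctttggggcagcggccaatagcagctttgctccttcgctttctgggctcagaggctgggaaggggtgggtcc
Ldha: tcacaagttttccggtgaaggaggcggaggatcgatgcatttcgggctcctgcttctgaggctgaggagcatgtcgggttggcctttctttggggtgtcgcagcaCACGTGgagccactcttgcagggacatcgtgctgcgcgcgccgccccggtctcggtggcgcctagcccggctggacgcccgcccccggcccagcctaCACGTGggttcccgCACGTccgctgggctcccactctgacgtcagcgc
Slc16a3: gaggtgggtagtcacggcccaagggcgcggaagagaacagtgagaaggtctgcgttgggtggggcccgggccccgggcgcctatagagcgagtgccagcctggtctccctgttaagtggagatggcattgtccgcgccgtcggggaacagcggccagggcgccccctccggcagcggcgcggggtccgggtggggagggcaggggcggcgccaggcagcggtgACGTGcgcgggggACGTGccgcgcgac
Hk3: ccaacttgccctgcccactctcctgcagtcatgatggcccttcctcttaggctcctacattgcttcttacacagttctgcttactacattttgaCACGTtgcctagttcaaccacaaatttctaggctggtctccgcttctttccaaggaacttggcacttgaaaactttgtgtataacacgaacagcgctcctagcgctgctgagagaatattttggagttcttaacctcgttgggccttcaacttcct
The printed Ldha window held 5 matches, which cover 3 places because 2 of them are the palindrome CACGTG, read on both strands. The window of the other Ldha start held 1 match, a GCGTG. Bases just after that other start were found in an annotated Ldha transcript, while those after the printed start were not. Pgk1 and Slc16a3 had 2 matches each and Hk3 had 1, in a window with 47.2% G and C against 73.6% for Slc16a3. Over the 13 RefSeq windows of the 10 members, ACGTG was present for 9 members, all but Pfkp, and in 18.5% of the 27025 genes with a window. GCGTG was present for 4 members (30.9% of all genes), and every member had one or the other in at least 1 window (41.5% of all genes). CACGTG, which contains ACGTG and is also the E-box bound by other factors, was found for Pfkfb3, Ldha and Hif1a and for 6.86% of all genes. For Ldha, ACGTG and CACGTG came only from the printed window. The bases after the Hif1a start were likewise not found in an annotated transcript of that gene. The members' windows were rich in G and C, with a median of 66.4% against 52.4% over all windows, and these letters are matches in a sequence and not bound sites.

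The deposited table gave, for each gene and mouse, a read count and an FPKM value, the count scaled for gene length and library size, so that levels can be compared between genes. Counts summed to between 53877663 and 90607218 per mouse. Groups were compared on the counts with edgeR's quasi-likelihood test, and every adjusted p below is from that test with Benjamini-Hochberg adjustment over all genes tested. A gene passed at an adjusted p under 0.05. A single gene was also tested by a two-sided exact permutation test on FPKM, which with 3 mice against 3 cannot give a p under 0.1. The samples were lung by their markers, since the 6 alveolar type 2 markers summed to between 7115 and 14350 FPKM in each mouse.

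In IL-33 lungs, 9 of the 10 genes rose and 1, Pfkfb3, fell. By adjusted p alone 54.6% of all 16831 genes tested passed in this comparison, 27.4% upward, so that passing the test sets a gene little apart here. The rise was at least 2-fold for 5 members (Hk3, Slc16a3, Pgk1, Hif1a and Pfkp), against 10.8% of all genes. The IL-33 and control mice did not overlap for 9 members, all but Slc2a1, and for 63.4% of all genes. The median log2 fold change was 0.91 over the members and -0.01 over all genes tested. Over the 76 other pathway genes tested, described below, it was 0.03, and the members were chosen with earlier results of these data known. With LM8, Hk3, Hif1a, Pfkp and Hk2 fell from their IL-33 levels while Slc16a3 and Pfkfb3 rose, and Pgk1, Pkm, Ldha and Slc2a1 did not pass. That is 6 of 10 members against 26.5% of all genes, 4 of them lower (13.9% of all genes) and 2 higher (12.6%). The fold change of Hk3 was the largest of the 10 in that comparison, to 0.559 of its IL-33 level, and so short of the 2-fold change that 5.39% of all genes passed. In IL-33+LM8 lungs 9 members, all but Pfkfb3, were higher than in control lungs, where 29.7% of all genes passed and 16.3% passed upward. Hk3 and Slc16a3 were at least 2-fold higher (5.87% of all genes). The same 9 members did not overlap between these groups (47.3% of all genes).

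**Figure D1:**
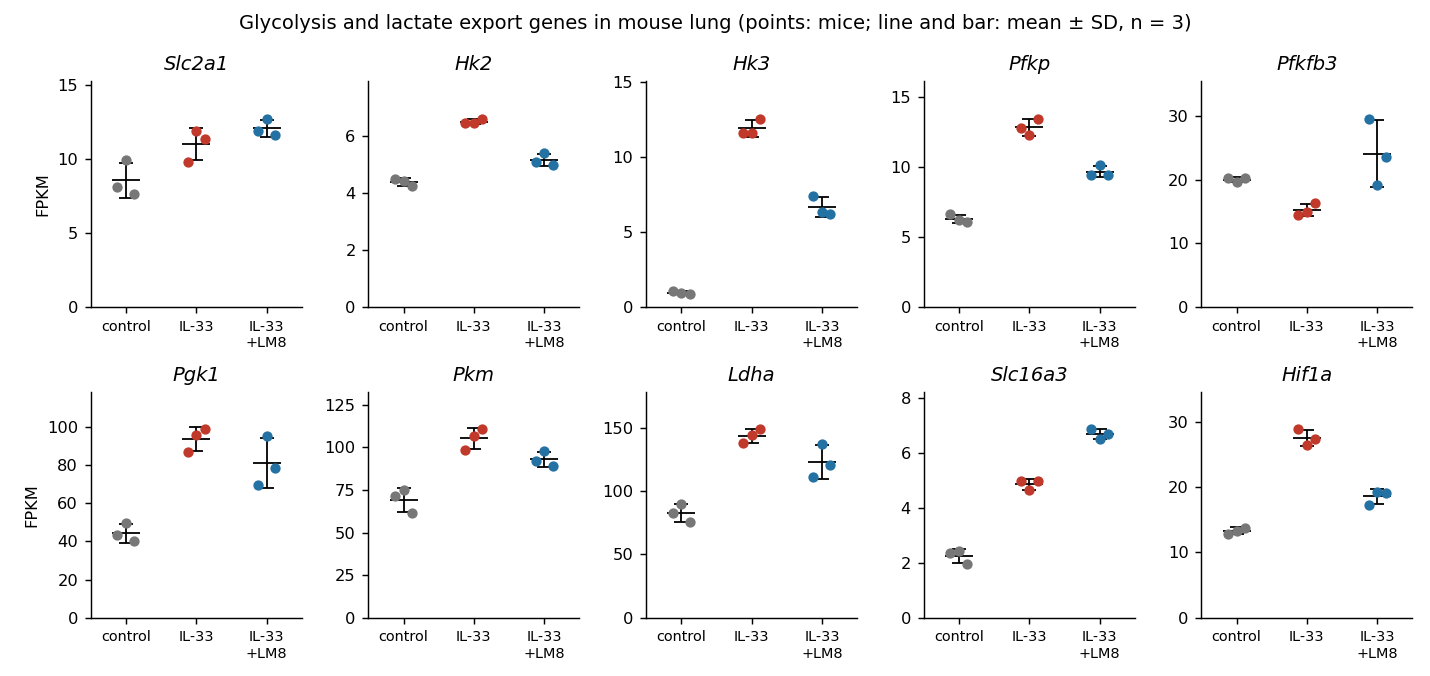
FPKM of the 10 genes in each of the 9 lungs, 1 panel per gene with its own axis from 0; points are mice, and lines with error bars are group means with SD (n = 3). Hk3, Pfkp, Hk2 and Hif1a peaked in the IL-33 mice, Slc16a3 was highest in the IL-33+LM8 mice, and Pfkfb3 was lowest in the IL-33 mice.

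Glucose enters most cells through GLUT1, the product of Slc2a1 (ENSMUSG00000028645; chromosome 4, 118965908 to 118995180, plus strand, in the table's coordinates, which differ from GRCm38). Its level was 8.10, 9.90 and 7.64 FPKM in the control mice, 9.76, 11.9 and 11.3 FPKM in the IL-33 mice and 11.9, 12.7 and 11.6 FPKM in the IL-33+LM8 mice. The IL-33 and control mice overlapped, 1 IL-33 mouse lying below the highest control, and the IL-33 and IL-33+LM8 mice overlapped too. The log2 fold change with IL-33 was 0.36 (SE 0.12, adjusted p = 0.0381 in edgeR, exact permutation p = 0.2), and this call was lost in 5 of 15 alternative fits. The adjusted p in edgeR was 0.103 without control replicate 1, 0.0988 without control replicate 3, 0.104 when IL-33 replicate 2 was left out and 0.1 when the third IL-33 mouse was. Between IL-33+LM8 and IL-33 it was 0.14 (SE 0.09, adjusted p = 0.336, edgeR), and between IL-33+LM8 and control 0.51 (SE 0.11, adjusted p = 0.0124, edgeR). Only the last of these separated the groups mouse by mouse.

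Hexokinases trap glucose as glucose 6-phosphate. Hk3 (ENSMUSG00000025877; chromosome 13, 55153798 to 55169198, minus strand), the isozyme known from myeloid cells, gave the largest response of the 10. Its level was 1.07, 0.93 and 0.89 FPKM in control mice, 11.6, 11.6 and 12.6 FPKM in IL-33 mice and 7.42, 6.35 and 6.23 FPKM in IL-33+LM8 mice, resting on 222 to 259 counts in the controls. The 3 groups were fully separate. Hk3 was 12.3-fold higher with IL-33 (log2 fold change 3.62, SE 0.11, adjusted p = 1.06e-06, edgeR), and with LM8 it fell by 0.84 on the log2 scale (SE 0.09, adjusted p = 0.000585, edgeR) to a level 6.95-fold above control. The last 34 bases of Hk3 overlap Unc5a on the other strand, and whether counting used the strand is not given in the sources used here.

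Leukocyte markers moved with these groups. The 6 pan-leukocyte markers summed to between 139.5 and 153.1 FPKM in control mice, 521.3 to 547.2 in IL-33 mice and 336.4 to 354.3 in IL-33+LM8 mice, and all 6 passed upward with IL-33 and downward with LM8. The 9 markers of monocytes and interstitial macrophages ran from 103.7 to 116.7, from 550.1 to 578.0 and from 262.5 to 276.0 FPKM in the same order of groups. Of these, 8 rose and 1 fell with IL-33, and 1 rose and 7 fell with LM8. The 8 eosinophil markers summed to at most 114.6 FPKM in controls, at least 590.8 in IL-33 mice and at most 177.8 in IL-33+LM8 mice. Ear2, an eosinophil-associated ribonuclease, made up most of that sum (83.2, 552.6 and 144.9 FPKM). Of the 7 eosinophil markers tested, 6 rose and 1, Ear1, fell with IL-33, and all 7 fell with LM8. In whole lung a change in the number of cells of a type and a change in RNA per cell cannot be told apart, and the part of these cells in the levels of Hk3 or any other member was not tested.

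Hk2 (ENSMUSG00000000628; chromosome 6, 82702006 to 82751435, minus strand), the inducible isozyme of muscle, fat and proliferating cells, moved far less. It stood at 4.49, 4.42 and 4.24 FPKM in control mice, 6.44, 6.45 and 6.60 FPKM in IL-33 mice and 5.07, 5.40 and 4.99 FPKM in IL-33+LM8 mice. Again no mouse of one group reached another. The log2 fold change was 0.57 with IL-33 (SE 0.06, adjusted p = 0.000194, edgeR) and -0.33 with LM8 (SE 0.07, adjusted p = 0.00892, edgeR). Against control, Hk2 in IL-33+LM8 lungs was higher by 0.25 (SE 0.08, adjusted p = 0.0474, edgeR), a call kept in 4 of 15 alternative fits and lost without any 1 of these 6 mice (adjusted p from 0.0726 to 0.138). The 6 markers of proliferating cells summed to between 8.36 and 12.8 FPKM in control, 79.5 and 92.5 in IL-33 and 32.5 and 41.5 in IL-33+LM8 mice, all 6 passing upward with IL-33 and downward with LM8, and their part in the Hk2 levels was not tested.

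The mixture of hexokinase isozymes also differed between the groups. Of the summed FPKM of Hk1, Hk2 and Hk3, Hk3 held 6.28% ± 0.33 (SD, n = 3) in control, 37.4% ± 0.53 in IL-33 and 28.6% ± 1.52 in IL-33+LM8 lungs. The share of Hk1, the widely expressed housekeeping isozyme, was 65.1% ± 1.65, 42.2% ± 0.57 and 49.3% ± 0.77. The sum was 15.3 ± 1.28, 31.9 ± 1.21 and 23.3 ± 1.04 FPKM. For each of these 3 quantities no mouse of one group reached another (exact permutation p = 0.1 in each comparison, the smallest possible), and Hk3 gained the most FPKM of the 3 isozymes with IL-33.

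Phosphofructokinase commits sugar to glycolysis, and Pfkp (ENSMUSG00000021196; chromosome 13, 6629804 to 6698813, minus strand) encodes its platelet isozyme. Its level was 6.61, 6.20 and 6.10 FPKM in control mice, 12.8, 12.3 and 13.5 FPKM in IL-33 mice and 9.43, 10.2 and 9.46 FPKM in IL-33+LM8 mice. The groups did not overlap in any comparison. Pfkp rose with IL-33 by a log2 fold change of 1.02 (SE 0.06, adjusted p = 1.08e-05, edgeR) and changed by -0.41 with LM8 (SE 0.06, adjusted p = 0.00247, edgeR). Its overlap with Pitrm1 on the other strand spans 748 bases. The summed FPKM of Pfkl, Pfkm and Pfkp was 28.0 ± 3.03 in control, 30.4 ± 1.56 in IL-33 and 29.2 ± 1.77 in IL-33+LM8 lungs, and no difference of these sums was shown (exact permutation p = 0.3, 0.5 and 0.7). Within that sum the share of Pfkp was 22.7% ± 2.37, 42.4% ± 3.43 and 33.2% ± 2.21, separate between all 3 groups. The share of Pfkm, the muscle isozyme, was 40.8% ± 2.13, 22.6% ± 2.83 and 26.6% ± 0.96.

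Pfkfb3 (ENSMUSG00000026773; chromosome 2, 11476244 to 11558888, minus strand) makes fructose 2,6-bisphosphate, the strongest activator of phosphofructokinase, and went the other way. Control mice had 20.3, 19.7 and 20.2 FPKM, IL-33 mice 14.6, 15.0 and 16.4 FPKM and IL-33+LM8 mice 29.6, 19.2 and 23.5 FPKM. All IL-33 mice were lowest, and the IL-33+LM8 mice were widely spread, with the lowest of them below every control. Pfkfb3 fell by 0.39 on the log2 scale with IL-33 (SE 0.06, adjusted p = 0.00108, edgeR; 27.2% of all genes passed downward). It rose with LM8 by a log2 fold change of 0.65 (SE 0.14, adjusted p = 0.0136, edgeR), and without IL-33 replicate 1 the adjusted p was 0.0519. The difference between IL-33+LM8 and control was 0.28 (SE 0.14, adjusted p = 0.176, edgeR, exact permutation p = 0.4), and without IL-33+LM8 replicate 2 it was 0.42 with an adjusted p of 0.0349. Of the other PFKFB genes, Pfkfb2 rose in both steps, from 9.49 to 11.1 and 13.0 FPKM (adjusted p = 0.0468 and 0.0221, edgeR), and Pfkfb4, at 10.7, 11.9 and 10.9 FPKM, did not pass.

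Pgk1 and Pkm encode the ATP-yielding enzymes of lower glycolysis. Pgk1 (ENSMUSG00000062070; chromosome X, 105230706 to 105247305, plus strand), phosphoglycerate kinase, stood at 43.2, 49.6 and 40.0 FPKM in control mice, 86.7, 95.7 and 98.8 FPKM in IL-33 mice and 69.6, 95.5 and 78.3 FPKM in IL-33+LM8 mice. It rose with IL-33 by a log2 fold change of 1.08 (SE 0.09, adjusted p = 6.47e-05, edgeR). IL-33+LM8 replicate 2 lay among the IL-33 mice, and the log2 fold change with LM8 was -0.21 (SE 0.12, adjusted p = 0.259, edgeR, exact permutation p = 0.2); without that mouse it was -0.35 with an adjusted p of 0.0296. The near-copy Pgk1-rs7 had at most 2.87% of the Pgk1 count.

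Pkm (ENSMUSG00000032294; chromosome 9, 59563651 to 59586658, plus strand) encodes both pyruvate kinase M1 and M2, which a count per gene does not separate. Its level was 71.3, 75.3 and 61.6 FPKM in control mice, 98.7, 107.0 and 110.6 FPKM in IL-33 mice and 92.0, 97.8 and 89.2 FPKM in IL-33+LM8 mice. The rise with IL-33 was 0.60 on the log2 scale (SE 0.09, adjusted p = 0.00104, edgeR). Every IL-33+LM8 mouse was below every IL-33 mouse, but by a log2 fold change of only -0.18 (SE 0.07, adjusted p = 0.104, edgeR). Such separation of the groups was found for 8 of the 10 members in that comparison and for 43.2% of all genes. The gene Gm49759 lies inside Pkm on the same strand, so reads may have been divided between them.

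Lactate dehydrogenase A, the subunit that favours lactate formation, is encoded by Ldha (ENSMUSG00000063229; chromosome 7, 46490899 to 46505051, plus strand), the most abundant member in every group. Control mice had 82.3, 89.7 and 75.8 FPKM, IL-33 mice 137.9, 144.3 and 148.6 FPKM and IL-33+LM8 mice 111.4, 137.3 and 120.3 FPKM. The IL-33+LM8 mice lay between the other groups without overlap, although the highest came within 1 FPKM of the lowest IL-33 mouse. Ldha rose with IL-33 by 0.80 on the log2 scale (SE 0.07, adjusted p = 1e-04, edgeR). With LM8 the change was -0.22 (SE 0.09, adjusted p = 0.11, edgeR); without IL-33+LM8 replicate 2 it was -0.32 with an adjusted p of 0.0176.

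Ldhb encodes the subunit that favours the return of lactate to pyruvate, and it fell with IL-33 by 1.02 on the log2 scale (SE 0.09, adjusted p = 6.27e-05, edgeR), from a mean of 90.1 to 44.3 FPKM, and was 58.8 FPKM with LM8. The summed FPKM of both subunits was 172.7 ± 13.1, 187.9 ± 7.80 and 181.8 ± 11.4 in control, IL-33 and IL-33+LM8 lungs (exact permutation p = 0.2 for IL-33 against control). The share of Ldha in that sum was 47.8% ± 1.65, 76.4% ± 1.16 and 67.5% ± 3.13, and no mouse of one group reached another. The 5 erythroid markers, genes of red cell precursors, summed to between 7847 and 9293 FPKM in control, 2539 and 3188 in IL-33 and 10880 and 12340 in IL-33+LM8 mice, and their part in the subunit levels was not tested.

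**Figure D2:**
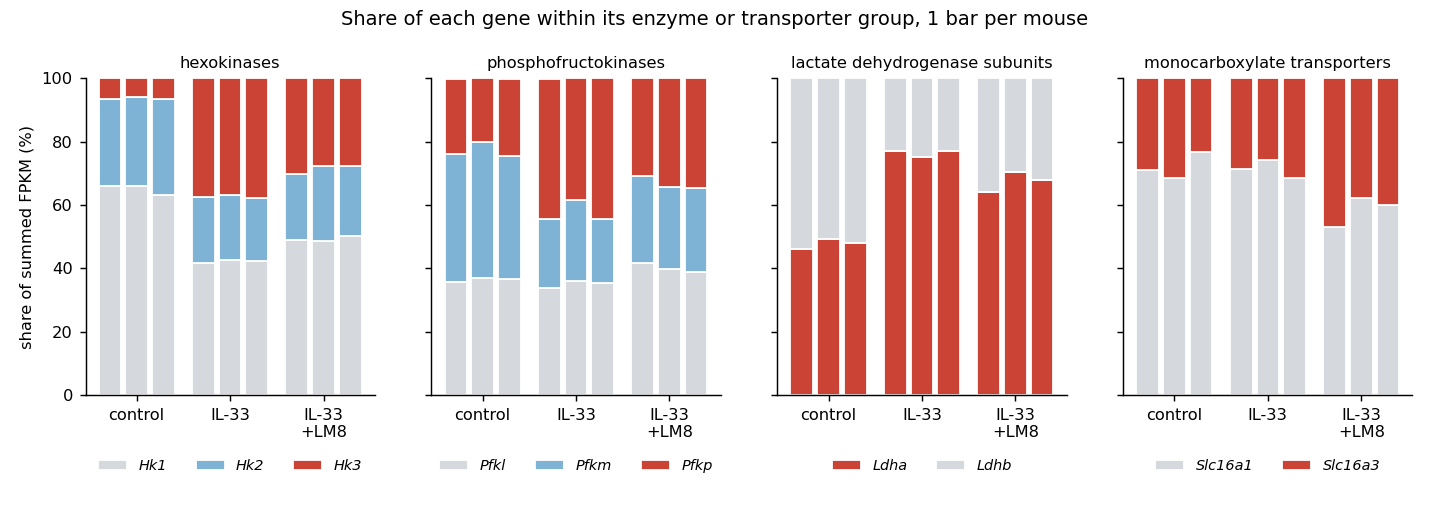
Stacked bars, 1 per mouse in the 3 groups, of the share of summed FPKM in percent held by each gene among the hexokinase, phosphofructokinase, lactate dehydrogenase and monocarboxylate transporter genes, with the members Hk3, Pfkp, Ldha and Slc16a3 in red. Mean shares of Hk3, Pfkp and Ldha were highest in IL-33 mice (37.4, 42.4 and 76.4%) and lower with LM8, while the Slc16a3 share was highest in IL-33+LM8 mice (41.6%).

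Lactate leaves glycolytic cells through MCT4, encoded by Slc16a3 (ENSMUSG00000025161; chromosome 11, 120839306 to 120849826, plus strand). Its level was 2.37, 2.44 and 1.97 FPKM in control mice, 4.97, 4.63 and 4.98 FPKM in IL-33 mice and 6.84, 6.50 and 6.68 FPKM in IL-33+LM8 mice. The groups were separate, and the order differed from that of Hk3, since the IL-33+LM8 mice were highest. Slc16a3 rose with IL-33 by a log2 fold change of 1.10 (SE 0.11, adjusted p = 0.000121, edgeR) and again with LM8 by 0.46 (SE 0.07, adjusted p = 0.00225, edgeR), which left it 1.57 above control (SE 0.11, adjusted p = 0.000109, edgeR). Its last 11 bases overlap Csnk1d on the other strand, a gene with 9489 to 15662 counts. The Slc16a1 gene, encoding the more widely expressed MCT1, had means of 5.90, 12.2 and 9.46 FPKM and rose with IL-33 (log2 fold change 1.05, adjusted p = 0.000122, edgeR), but its change of -0.37 with LM8 did not pass (adjusted p = 0.082, edgeR). The share of Slc16a3 in the sum of both was 27.8% ± 4.22 in control and 28.6% ± 2.75 in IL-33 lungs (exact permutation p = 0.9) and 41.6% ± 4.69 with LM8, above every mouse of the other groups. Bsg, whose product basigin carries both transporters to the membrane, was at 228.8, 210.2 and 218.6 FPKM and did not pass.

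Neutrophil markers were also highest with LM8. The 8 markers summed to between 26.7 and 33.5 FPKM in control mice, 188.9 to 211.5 in IL-33 mice and 875.0 to 1025.0 in IL-33+LM8 mice. Of the 8, 7 rose with IL-33 and all 8 rose from there with LM8. Slc16a3 likewise rose in both steps, whereas Pfkfb3 fell with IL-33 and rose with LM8. The part of neutrophils in the levels of these members, which both rose with LM8, was not tested.

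Hif1a (ENSMUSG00000021109; chromosome 12, 73948149 to 73994304, plus strand) was at 12.8, 13.3 and 13.8 FPKM in control mice, 28.8, 26.4 and 27.4 FPKM in IL-33 mice and 17.3, 19.3 and 19.2 FPKM in IL-33+LM8 mice. No mouse of one group reached another. It rose with IL-33 by a log2 fold change of 1.05 (SE 0.05, adjusted p = 4.63e-06, edgeR) and fell with LM8 by 0.57 on that scale (SE 0.06, adjusted p = 0.000718, edgeR), to 0.50 above control (SE 0.06, adjusted p = 0.00153, edgeR). Among the 9 other HIF subunits and oxygen-dependent regulators, 2 rose and 5 fell with IL-33 (27.4% and 27.2% of all genes). Egln3, an oxygen-sensing prolyl hydroxylase of HIF alpha subunits named here after its values were seen, changed most, from 0.73 to 4.70 FPKM (log2 fold change 2.69, adjusted p = 6.81e-05, edgeR), and fell with LM8 to 2.58 FPKM (adjusted p = 0.00363, edgeR). Egln2, of the same family, was at 28.4, 26.7 and 30.02 FPKM and did not pass. Epas1, encoding HIF-2 alpha of endothelium and epithelium, went from a mean of 333.8 to 173.4 FPKM and stood at 293.6 FPKM with LM8 (log2 fold changes -0.95 and 0.76, adjusted p = 2.72e-05 and 0.00102, edgeR). Its IL-33+LM8 and control mice overlapped (log2 fold change -0.17, adjusted p = 0.271, edgeR). The 6 endothelial markers summed to between 652.0 and 736.5 FPKM in control, 422.3 and 465.2 in IL-33 and 641.1 and 659.1 in IL-33+LM8 mice. Of these, 4 fell with IL-33 while Cldn5 and Vwf did not pass, and all 6 rose with LM8. The part of endothelial cells in the Epas1 levels was not tested. Vhl, which marks HIF alpha subunits for degradation, rose with IL-33 from 6.91 to 11.2 FPKM and was 8.46 FPKM with LM8.

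The share of the IL-33 rise in mean FPKM that was still present with LM8 was computed for the 9 members that rose. It was 36.3% ± 6.35 (SE) for Hk2, 37.1% ± 5.06 for Hif1a, 51.6% ± 4.66 for Pfkp and 52.0% ± 3.80 for Hk3. For Pkm, Ldha and Pgk1 it was 65.4% ± 10.2, 66.2% ± 13.1 and 74.5% ± 16.4. Slc16a3, at 170% ± 9.40, exceeded its IL-33 level, and Slc2a1, at 144% ± 41.7, was too imprecise to place. Differences between these shares were not tested.

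**Figure D3:**
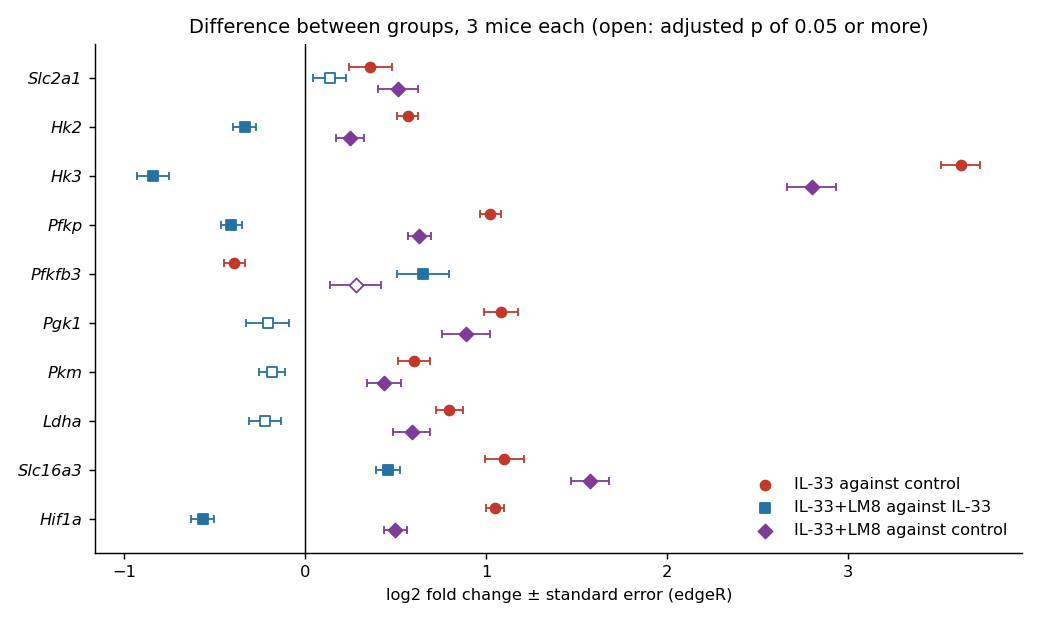
Log2 fold changes of the 10 genes with SE from edgeR, for IL-33 against control, IL-33+LM8 against IL-33 and IL-33+LM8 against control (3 mice per group), with filled points at an adjusted p under 0.05. Hk3 had the largest rise with IL-33 (3.62), and Slc16a3 (0.46) and Pfkfb3 (0.65) were the members that rose with LM8.

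By level, the members kept a similar order. In control lungs it ran Ldha, Pkm, Pgk1, Pfkfb3, Hif1a, Slc2a1, Pfkp, Hk2, Slc16a3 and Hk3, from a mean of 82.6 down to 0.96 FPKM, and no neighbours overlapped. In IL-33 lungs Hk3 had climbed past Slc2a1, Hk2 and Slc16a3, and Pkm overlapped Pgk1, as Pfkp, Hk3 and Slc2a1 overlapped in turn. In IL-33+LM8 lungs the overlapping neighbours were Pkm and Pgk1, Pfkfb3 and Hif1a, and Slc16a3 and Hk3, with Hk2 lowest at 5.15 ± 0.22 FPKM.

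The other genes of glucose, pyruvate and HIF pathways were read from 9 lists of 79 genes, of which 76 were tested. With IL-33, 28 rose and 22 fell, 50 in all against 54.6% of all genes, and their median log2 fold change was 0.03. Upward, 27.4% of all genes passed with IL-33 and downward 27.2%, and these are the shares against which the counts of each list stand. With LM8, 15 rose and 10 fell, 25 of 76 where 26.5% of all genes passed, and the number was 15 without IL-33 replicate 2, 14 without IL-33 replicate 3 and 15 once the IL-33+LM8 mouse numbered 3 was left out. Of the 10 members, 9 rose and 1 fell with IL-33. With LM8, 2 of the members rose and 4 fell (12.6% and 13.9% of all genes). The members had, however, been chosen with earlier results of these data known.

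Of the 13 other core glycolytic enzymes tested, 6 rose and 3 fell with IL-33, against 27.4% of all genes higher and 27.2% lower, so that the number lower was near the background. Eno1, the widely expressed enolase, rose most, from a mean of 26.1 to 61.6 FPKM (log2 fold change 1.24, adjusted p = 0.000157, edgeR), and fell with LM8 to 47.9 FPKM. Gpi1, which isomerizes glucose 6-phosphate, went from 32.8 to 53.7 and 41.8 FPKM, and Pgam1, phosphoglycerate mutase, from 44.4 to 76.5 and 62.2 FPKM, both higher with IL-33 and lower with LM8 by the test. Aldoa, the most abundant of them, rose from 135.3 to 170.3 FPKM. The 3 that fell were Pfkm, Pgam2 and Eno3, isozymes known from muscle, with log2 fold changes of -0.74, -1.14 and -0.80. Gapdh, counted among the 6 that rose, had means of only 3.53 in control, 5.42 in IL-33 and 4.70 FPKM in IL-33+LM8 lungs. It is uncertain, because its processed copies Gapdh-ps15 and Gapdh-ps16 had up to 76.8% and 57.9% of its count. Only copies named after their parent gene were looked for, here and for the members.

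Of 7 pentose phosphate genes 5 rose with IL-33 (27.4% of all genes), among them Tkt (transketolase, 21.5 to 38.2 FPKM), Taldo1 (transaldolase, 40.5 to 63.7 FPKM) and G6pdx, the NADPH-forming entry enzyme (16.2 to 24.1 FPKM). With LM8 these 3 stood at 34.5, 57.7 and 26.9 FPKM and did not pass. Of 5 gluconeogenic genes tested 4 rose, against the same share of all genes. Fbp1, whose enzyme opposes phosphofructokinase, went from a mean of 0.96 to 22.3 FPKM (log2 fold change 4.54, SE 0.51, adjusted p = 0.000253, edgeR) and to 8.98 FPKM with LM8, a rise larger than that of any of the 10 members. Pcx, pyruvate carboxylase, went from 15.7 to 26.7 and 20.9 FPKM, and G6pc3, a glucose 6-phosphatase, from 9.88 to 12.7 and 11.4 FPKM.

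Of the 13 genes that control the entry of pyruvate into mitochondria, 1 rose and 4 fell with IL-33, fewer than the 54.6% of all genes that passed and, downward, near the 27.2%. With LM8 4 rose (12.6% of all genes). Pdk4 and Pdk2, kinases that switch off pyruvate dehydrogenase, fell with log2 fold changes of -1.47 and -0.70 and rose with LM8 by 0.82 and 0.29. Pdk3, another kinase of the family, rose with IL-33 from 7.04 to 10.7 FPKM. Pdha1 and Dld, subunits of the dehydrogenase complex, did not pass in either comparison.

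Of the 11 hypoxia-inducible genes outside glycolysis, 3 rose and 7 fell with IL-33 (27.4% and 27.2% of all genes), while 5 rose and 6 did not pass with LM8 (12.6% of all genes higher). Vegfa, the endothelial growth factor, went from a mean of 233.7 to 98.4 and 162.4 FPKM, and Adm, adrenomedullin, from 12.3 to 2.45 and 4.60 FPKM. Bnip3, a mitophagy receptor, and P4ha1, a collagen prolyl hydroxylase subunit, had log2 fold changes of -0.88 and -0.84 with IL-33 and 0.72 and 0.39 with LM8. Bnip3l, a relative of Bnip3, went from 40.7 to 30.1 and 34.6 FPKM. The summed FPKM of the 6 alveolar type 1 markers was also lowest with IL-33. It lay between 1609 and 1672 in control, 826.1 and 864.3 in IL-33 and 1250 and 1280 in IL-33+LM8 mice. Of the 6, 5 fell and 1, Pdpn, rose with IL-33, and 4 rose with LM8. The part of these cells in the values of the hypoxia-inducible genes was not tested.

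**Figure D4:**
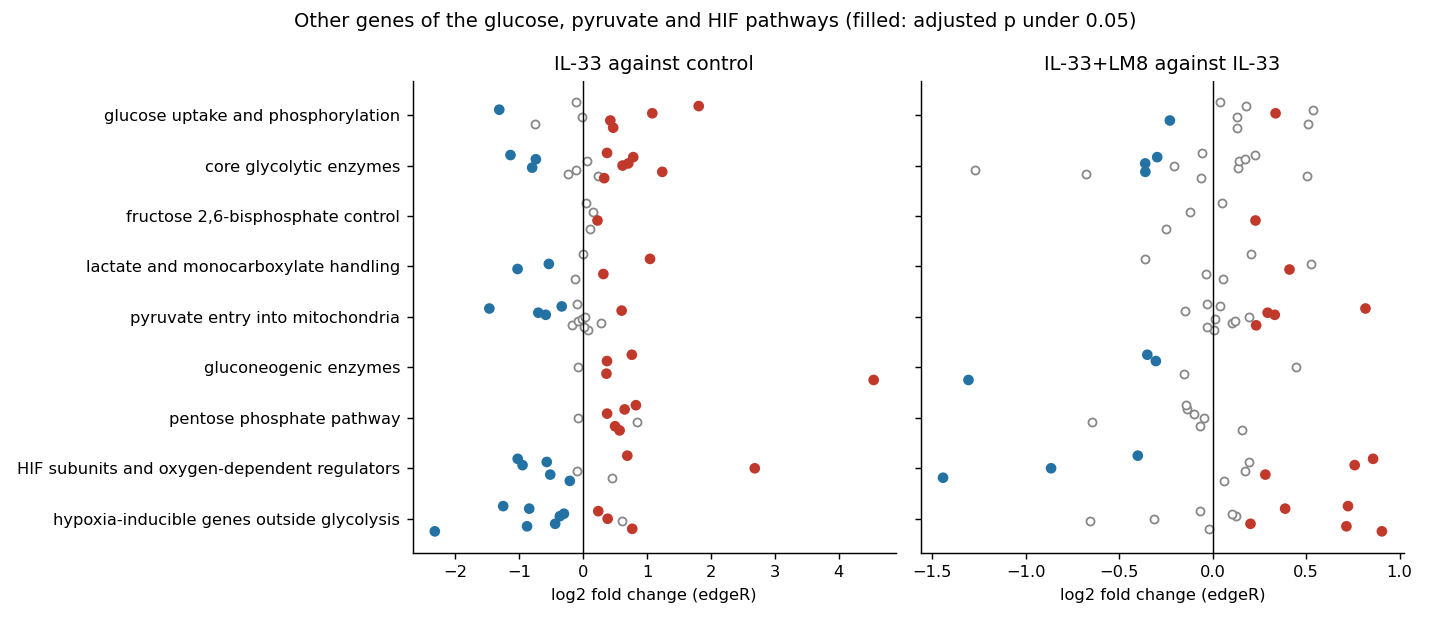
Log2 fold changes of the 76 other pathway genes tested, by list, for IL-33 against control and IL-33+LM8 against IL-33 (edgeR, 3 mice per group), with filled points at an adjusted p under 0.05. With IL-33, 5 of the 7 pentose phosphate genes and 4 of the 5 gluconeogenic genes passed upward (27.4% of all genes), and 7 of the 11 hypoxia-inducible genes outside glycolysis passed downward (27.2%).

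The gene whose profile over the 9 mice was nearest to each member was found by the root mean square difference of log2(FPKM + 1) values, each centred on its own mean, among 8565 genes with a mean of at least 5 FPKM. For Hk3 it was Ccr1, a chemokine receptor of myeloid cells (0.108 log2 units, where the member itself varied by 1.15). For Slc16a3 it was Casp4, an inflammatory caspase that senses lipopolysaccharide (0.0819), for Pfkfb3 the interferon-responsive factor Irf1 (0.0467) and for Hif1a the granule protease activator Ctsc (0.0439). The nearest gene was Rps18, a ribosomal protein gene, for Ldha (0.0455), Nme2 for Pgk1 (0.0579) and Med11 for Pkm (0.0470). For Hk2, Pfkp and Slc2a1 it was Aco1 (0.0317), Esyt1 (0.0359) and Sf3b5 (0.0608). With a pseudocount of 0.1 the nearest gene was the same for 8 of the 10 members, and became Ltb4r1 for Hk3 and Sec61b for Pgk1.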

How the data were processed

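RNA of whole lung from 9 mice was sequenced, and grouping, as well as the mice being separate animals, follows the labels. The authors deposited 1 table with a raw read count and an FPKM value per gene and mouse, and all its per-sample columns were used. The submitters' processing notes name HISAT2 2.0, StringTie 1.3.0, Bowtie 0.12.2 and the build mm10, while the counting tool and its strand setting are not given in the sources used here. Of 32643 gene IDs also found in GENCODE M21 (GRCm38), 620 had the same start and end, and none of the 10 members did, so gene coordinates are given as in the table and promoter coordinates as in RefSeq on GRCm38.p6. Where a symbol had 2 rows (Aldoa), the row with the higher mean FPKM was used.

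Counts were tested with edgeR 4.0.16 (R 4.3.3, quasi-likelihood, TMM), separately for the 6 mice of each comparison, after genes whose FPKM averaged under 0.5 in the 9 mice were removed, and the code was first tested on simulated counts. A gene passed at a Benjamini-Hochberg adjusted p under 0.05. The SE is the log2 fold change divided by the square root of F. Exact permutation tests used scipy 1.17.1. Isozyme groups and their FPKM shares were added once values had been seen. The members and all gene lists were chosen with earlier results of these data known. Named in the text are all members, pathway genes with a group mean of at least 5 FPKM that passed with at least a 1.5-fold change or were among the 2 most abundant of their list, and the gene nearest each member.

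Within groups, the variance between libraries was 20.4 times that of sampling or more, and each library was counted as 1 sample. Replicate numbers carry no stated pairing. The deviations of same-numbered mice correlated at 0.307, 0.322 and 0.672 between control and IL-33+LM8 mice, at -0.419, 0.28 and -0.282 between control and IL-33 mice and at -0.38, 0.222 and -0.397 between IL-33 and IL-33+LM8 mice. Alternatives covered the scaling, the filter, DESeq2 1.42.0, limma 3.58.1 on log2(FPKM + 1) and log2(FPKM + 0.1), a minimum fold change, a joint fit of the 9 mice, a block for the replicate number and leaving out single mice.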

Additional observations from a re-analysis of the deposited data

How the results depend on the processing

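Over the alternatives, 426 fold changes of single genes kept their direction and their side of the threshold, 17 no longer passed, 4 newly passed and 0 reversed. With a minimum log2 fold change of 1, the members that passed numbered 5, 0 and 2 (IL-33 against control, IL-33+LM8 against IL-33 and IL-33+LM8 against control) instead of 10, 6 and 9, since the other fold changes were smaller, and the other pathway genes 13, 2 and 5 instead of 50, 25 and 31. DESeq2 gave 10, 7 and 9 members, with Ldha newly lower with LM8 (adjusted p = 0.0491). For DESeq2 and the fits that follow, the share of all genes passing was not computed, so their counts have no background beside them. With each mouse left out, members that passed numbered 9 to 10, 5 to 8 and 8 to 9, and other pathway genes 45 to 50, 14 to 27 and 23 to 30. For IL-33+LM8 against IL-33, those other pathway genes dropped to 15 without IL-33 replicate 2, to 14 without IL-33 replicate 3 and to 15 without IL-33+LM8 replicate 3, fits with fewer samples. With a replicate block, members that passed numbered 10, 6 and 9 and no member's call changed, while the other pathway genes numbered 50, 18 and 38. With all genes that had a count, the rise of Slc2a1 with IL-33 had an adjusted p of 0.0563. With a mean of at least 5 FPKM required, Slc16a3 was not tested. With 1 mouse left out, all 36 isozyme shares stayed within 1 SD of the mean. With 3 mice this holds whatever the values, so it cannot tell whether the shares are stable. That alternative was chosen after seeing the data, as was the smaller pseudocount for the nearest genes. The counts of Hk3 in control mice, 222 to 259, were the lowest of any member.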
